A study of Mus musculus with 9 samples.

Results

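Wnt ligands are a family of secreted signalling proteins, and 10 of their genes (Wnt2, Wnt4, Wnt5a, Wnt5b, Wnt6, Wnt9a, Wnt10a, Wnt10b, Wnt11 and Wnt16) are described here in fibroblasts of the mouse spinal meninges. They were chosen by symbol, and each matched 1 of the 22013 entries of the deposited table. RNA sequencing had been done on 9 libraries, with 3 per spinal segment, and the labels name the segments C, T and L without spelling the letters out. All 3 groups were primary cells taken fresh from spinal meninges, with spinal cord as the labelled tissue and no treatment, and the study compares fibroblast features between segments, under a title on scar formation after spinal cord injury. The sources used here give no genotype, strain or age, and nothing in them ties a replicate to its own animal or culture. The p-values therefore rest on a spread between samples that may be technical. By RefSeq, Wnt2, Wnt5b and Wnt16 lie on chromosome 6, Wnt6 and Wnt10a on chromosome 1, and the others on chromosomes 4 (Wnt4), 7 (Wnt11), 11 (Wnt9a), 14 (Wnt5a) and 15 (Wnt10b).

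A Wnt ligand is made as a lipid-bearing glycoprotein. Porcn attaches the lipid and the carrier Wls takes the protein to the cell surface. On receiving cells it binds a Frizzled receptor. With the co-receptors Lrp5 and Lrp6 this stabilises beta-catenin, which enters the nucleus and acts through Tcf and Lef factors. With Ror or Ryk receptors it can instead act on cell polarity and movement without beta-catenin, the route best known for Wnt5a and Wnt11. In the meninges fibroblasts are sources of secreted signals to the nearby nervous tissue, such as retinoic acid and Cxcl12.

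The library totals ranged from 15652558 to 25204310 estimated counts, and replicates of 1 segment differed by more than sampling noise (chi-square divided by degrees of freedom, 3.77 to 20.4). The 10 fibroblast markers were all detected in every segment (5 higher and 4 lower in T relative to C, 5 higher and 3 lower in L), and their summed level was 13914 to 14358 TPM in C against 13895 to 14678 in T and 16424 to 16838 in L. TPM is a transcript level corrected for gene length and scaled to the same total in each library. Genes with at least 1 TPM in at least 3 libraries were tested, 12553 in all, with edgeR's quasi-likelihood test on the estimated counts and Benjamini-Hochberg adjustment, and an adjusted p below 0.05 counted as a change. Fold changes are on the TMM scale, where the median log2 change of all tested genes was 0.02 in T and 0.01 in L relative to C. On log2(TPM + 1) in limma those shifts were 0.13 and 0.10, and 65.0% of the genes called between T and C were higher in T, against 50.6% in edgeR. For L against C those shares were 62.5% and 49.2%. Of all tested genes, edgeR called 51.1% between T and C and 49.6% between L and C, beside which the marker counts above stand.

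The ligands that led the family differed between C and the other segments. In C, Wnt5a was the most abundant ligand, followed by Wnt2 and Wnt4. In T and L, Wnt6 was the most abundant, followed by Wnt11. Summed over all 19 Wnt ligand genes in the table, the level was 121 ± 2.77 TPM in C, against 158 ± 10.99 in T and 129 ± 3.45 in L (mean ± SD, n = 3). Wnt5a held 37.0% ± 1.36 of that sum in C, 11.7% ± 1.11 in T and 16.8% ± 2.19 in L. Wnt6 went the other way, from 2.03% ± 0.434 in C to 37.8% ± 2.22 in T and 29.5% ± 1.35 in L. The 10 ligands together made up at least 96.3% of the sum in every library.

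**Figure D1:**
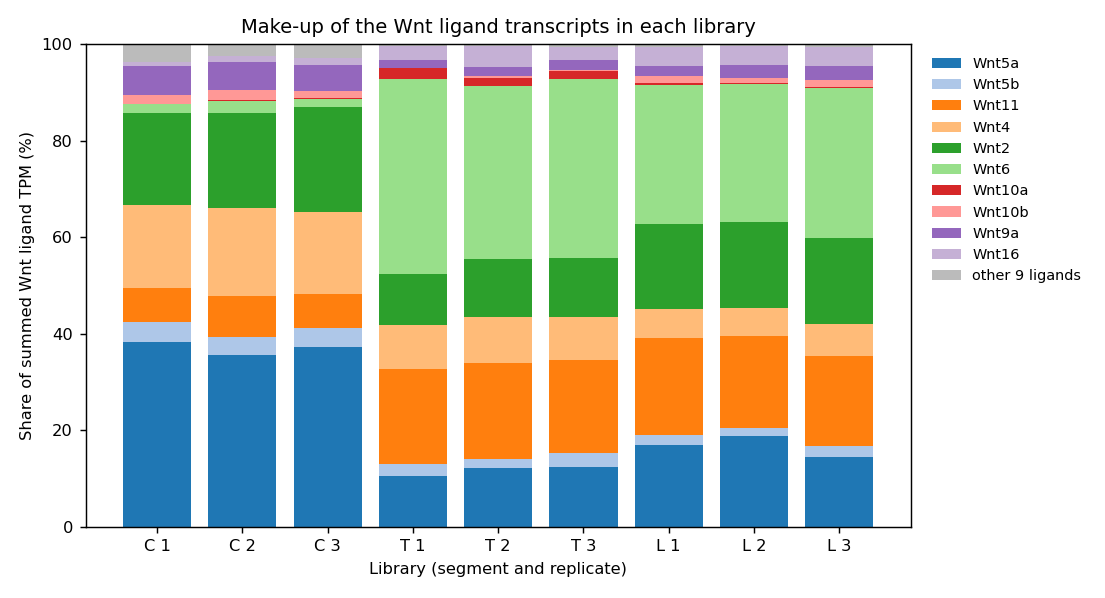
Share of the summed TPM of all 19 Wnt ligand genes held by each ligand, in percent (y axis), for each of the 9 libraries (x axis), with the 9 genes outside the named 10 pooled in grey. Wnt5a is the bottom block, tallest in the C libraries (37.0% on average) and shorter in T and L, where Wnt6 takes 37.8% and 29.5%.

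The RefSeq promoter sequences available (build GRCm38.p6) matched 8 of the 10 ligands, with 11 listed starts; Wnt5a and Wnt10a had no entry. The 250 bases before the start are shown for Wnt6, Wnt11 and Wnt16, which were higher in T and L than in C. They are also shown for Wnt4 and Wnt9a, which were lower, so that promoters of ligands with opposite changes can be read side by side. The windows of Wnt2, Wnt5b and Wnt10b are not printed, and their matches are given below. Wnt2 was also called lower in both segments, but its call in L was lost in 13 of 19 alternative settings. Capitals mark every match, on either strand, to the GC box, spelled GGGCGG, the core of TCF/LEF sites, spelled CTTTGA, the TATA box, spelled TATAAA, the core of TEAD sites, spelled GGAATG, or the AP-1 site, spelled TGANTCA.
Wnt6, chr1:74771642-74771891, plus strand: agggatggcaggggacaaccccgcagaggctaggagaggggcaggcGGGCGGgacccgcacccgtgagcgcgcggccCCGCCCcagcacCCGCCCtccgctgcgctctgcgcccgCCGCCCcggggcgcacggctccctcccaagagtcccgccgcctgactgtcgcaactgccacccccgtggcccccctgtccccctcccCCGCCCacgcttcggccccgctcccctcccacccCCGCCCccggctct
Wnt11, chr7:98834862-98835111, plus strand: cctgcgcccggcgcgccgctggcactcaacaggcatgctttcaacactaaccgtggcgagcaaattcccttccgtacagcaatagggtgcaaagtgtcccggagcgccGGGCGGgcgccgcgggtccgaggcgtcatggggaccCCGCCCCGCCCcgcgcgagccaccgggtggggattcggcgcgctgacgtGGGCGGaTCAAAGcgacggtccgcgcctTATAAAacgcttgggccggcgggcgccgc
Wnt16, chr6:22287977-22288226, plus strand: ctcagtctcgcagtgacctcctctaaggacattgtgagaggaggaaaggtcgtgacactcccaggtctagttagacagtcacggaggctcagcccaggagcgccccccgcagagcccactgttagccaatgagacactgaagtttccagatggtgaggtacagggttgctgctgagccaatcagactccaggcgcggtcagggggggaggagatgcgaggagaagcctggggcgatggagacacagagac
Wnt4, chr4:137277385-137277634, plus strand: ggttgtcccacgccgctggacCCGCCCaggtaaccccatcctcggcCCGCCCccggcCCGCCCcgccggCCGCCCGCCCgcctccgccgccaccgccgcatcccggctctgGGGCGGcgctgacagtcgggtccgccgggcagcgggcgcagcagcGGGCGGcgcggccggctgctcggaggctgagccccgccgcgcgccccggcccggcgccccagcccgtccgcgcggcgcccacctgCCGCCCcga
Wnt9a, chr11:59306680-59306929, plus strand: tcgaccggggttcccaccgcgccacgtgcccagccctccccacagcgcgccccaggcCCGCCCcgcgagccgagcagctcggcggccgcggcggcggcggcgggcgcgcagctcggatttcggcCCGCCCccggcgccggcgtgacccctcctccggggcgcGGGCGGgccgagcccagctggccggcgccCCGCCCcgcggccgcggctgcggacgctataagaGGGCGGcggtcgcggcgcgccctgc

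GC boxes were found in windows of ligands from both groups. The windows printed held 6 for Wnt6, 4 for Wnt11 (1 overlapping pair), 8 for Wnt4 (1 overlapping pair), 5 for Wnt9a and 0 for Wnt16, and 32.7% of the 32841 promoter windows in the table held at least 1. The Wnt11 window, the first of its 2 listed starts, also held 1 TCF/LEF core and 1 TATA box, which 13.8% and 12.4% of all windows held. None of the windows printed matched the TEAD core (12.6% of all windows) or the AP-1 site (6.75%). Among windows not printed, that of Wnt2 held 1 GC box and no other match. For Wnt5b, lower in L than in C, start 1 of 3 held 1 GC box and 1 AP-1 site. Its start 3 held 2 GC boxes and 1 TCF/LEF core, and its start 2 held no match. The windows of Wnt10b and of start 2 of Wnt11 held no match. The G and C content of the windows not printed ran from 53.2% to 75.2%, with 63.6% for Wnt2. The G and C content was 79.6% for Wnt6, 70.8% for Wnt11, 59.2% for Wnt16, 85.2% for Wnt4 and 84.4% for Wnt9a, against a median of 52.4% over all windows. These are matches of letters, not sites shown to be bound.

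Segment T was compared with C for each ligand. Of the 10 ligands, 4 were higher in T (Wnt6, Wnt10a, Wnt11 and Wnt16) and 5 were lower (Wnt5a, Wnt9a, Wnt4, Wnt2 and Wnt10b), while Wnt5b did not pass. Among all tested genes 51.1% were called in this comparison, 25.8% higher in T and 25.2% lower. All 10 ligands had passed the filter on low values, Wnt10a through the T libraries alone and Wnt10b through C and L. Their median log2 change was -0.51, against 0.02 over all genes. TPM values of T and C did not overlap for any of the 10 ligands, as for 58.1% of all tested genes.

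Segment L against C gave 3 ligands higher in L (Wnt6, Wnt11 and Wnt16) and 5 lower (Wnt4, Wnt5a, Wnt5b, Wnt9a and Wnt2), with Wnt10a and Wnt10b not passing. The call of Wnt2 was lost in 13 of 19 alternative settings. Over all tested genes 49.6% were called, 24.4% higher and 25.2% lower. The median log2 change of the ligands was -0.34, against 0.01 over all genes. The comparison shares the C libraries with that of T against C, so the likeness of their directions is not independent. Between L and T, 2 ligands were higher in L (Wnt2 and Wnt10b) and 3 were lower (Wnt4, Wnt6 and Wnt10a), where 16.1% of all genes were called, 7.88% higher and 8.21% lower. TPM values did not overlap for 9 of 10 ligands between L and C and for 7 of 10 between L and T, against 58.6% and 28.2% of all genes. An F test over the 3 segments called 10 of 10 ligands and 55.9% of all genes. Wnt10a entered these tests through the T libraries alone, and Wnt10b through those of C and L. In bulk libraries, fewer cells of a type and less RNA per cell cannot be told apart.

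**Figure D2:**
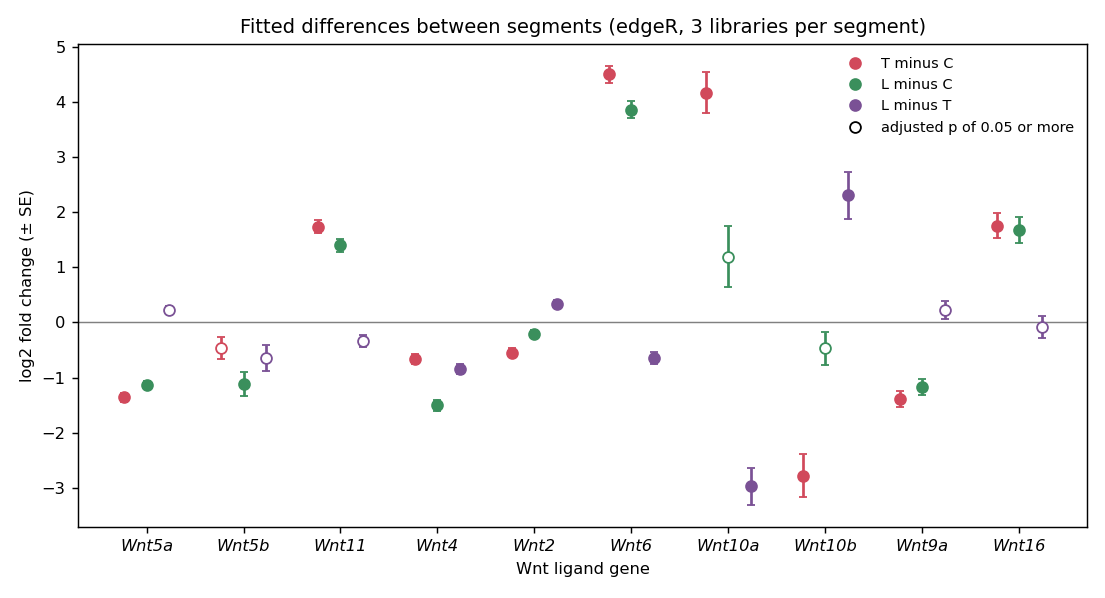
Fitted log2 fold changes (y axis, bars are the standard error, edgeR) of the 10 Wnt ligands (x axis) for L minus T, L minus C and T minus C; open points did not reach an adjusted p below 0.05. Wnt6 stands highest at 4.50 for T and 3.85 for L, and the changes of Wnt10a and Wnt10b between L and T point opposite ways (-2.97 and 2.31).

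Wnt5a, the ligand best known for signalling through Ror2 without beta-catenin, stood at 47.2, 43.3 and 44.0 TPM in the C libraries, 17.8, 18.6 and 18.8 in T, and 22.3, 24.3 and 18.2 in L. All C libraries stood far above the rest, and T and L overlapped. Wnt5a was 2.56-fold lower in T than in C (log2 -1.36, SE 0.08, edgeR adjusted p = 6.41e-09, n = 3 per segment) and 2.19-fold lower in L (adjusted p = 5.27e-08). Between L and T its log2 difference was 0.23 (SE 0.08, adjusted p = 0.0717), which passed without L replicate 3 (log2 0.30, edgeR adjusted p = 0.0235).

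Wnt5b, its closest relative, was lower throughout, at 5.31, 4.71 and 4.64 TPM in C, against 4.49, 2.86 and 4.40 in T and 2.74, 1.91 and 2.75 in L. All T values lay below C and above L, but T replicate 2 stood close to L. The gene was 2.16-fold lower in L than in C (log2 -1.11, SE 0.22, edgeR adjusted p = 0.000881). Its log2 difference of T against C was -0.47 (SE 0.20, adjusted p = 0.0693), which passed without T replicate 1 (log2 -0.61, adjusted p = 0.0263) and shrank without T replicate 2 (log2 -0.27, adjusted p = 0.273). That of L against T was -0.65 (SE 0.23, adjusted p = 0.0767), which passed without T replicate 2 (log2 -0.84, adjusted p = 0.0159).

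Wnt11, known for guiding cell movements in zebrafish and frog gastrulation, had the opposite pattern to Wnt5a. It stood at 8.56, 10.4 and 8.26 TPM in C, against 33.7, 30.3 and 28.9 in T and 26.6, 24.7 and 23.4 in L. The 3 segments did not overlap, and C was far below the rest. Wnt11 was 3.33-fold higher in T than in C (log2 1.73, SE 0.12, edgeR adjusted p = 3.06e-08) and 2.64-fold higher in L (log2 1.40, SE 0.12, adjusted p = 4.05e-07). L against T gave a log2 difference of -0.33 (SE 0.11) at the edge of the threshold (adjusted p = 0.0508), and it passed without T replicate 2 (log2 -0.40, adjusted p = 0.0323). The ratio of Wnt11 to Wnt5a in TPM was 0.203 ± 0.0325 in C, against 1.69 ± 0.186 in T and 1.17 ± 0.139 in L (mean ± SD, n = 3).

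**Figure D3:**
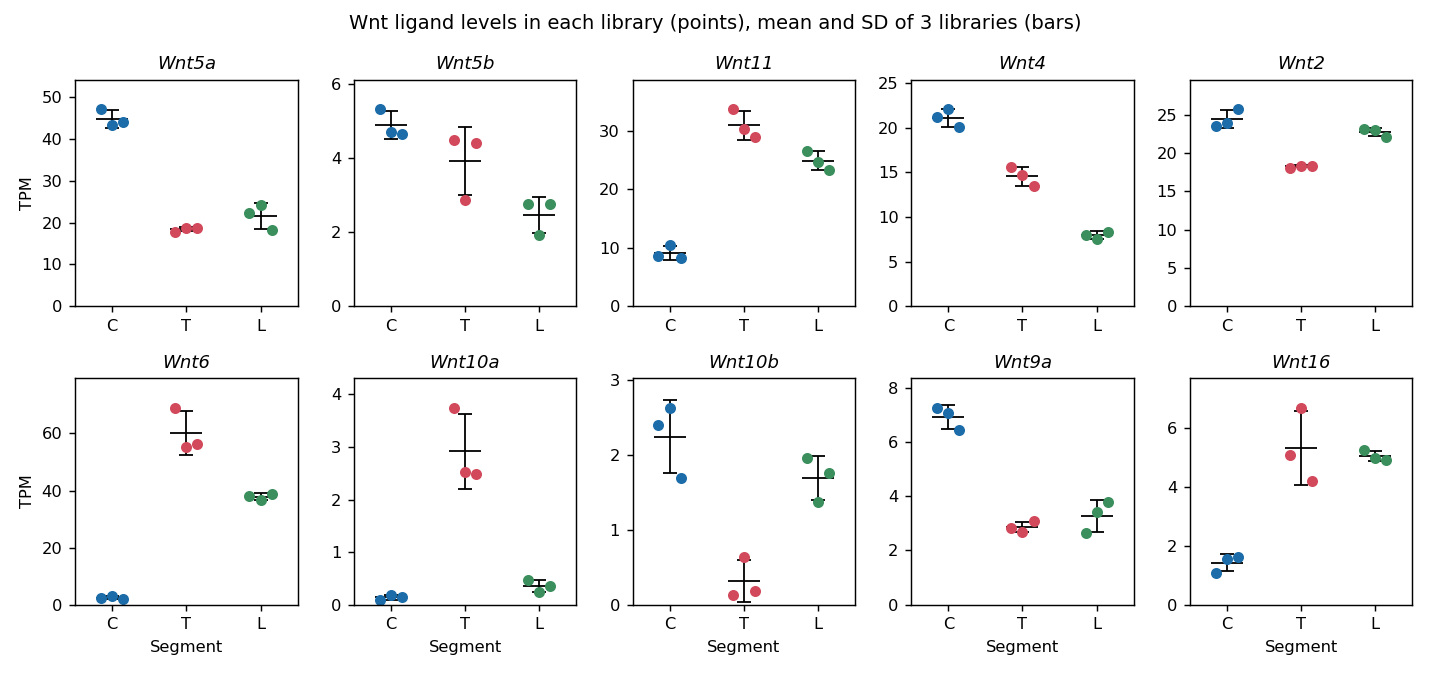
TPM (y axis, from 0, each panel on its own scale) of each Wnt ligand in the 9 libraries by segment (x axis); points are libraries, and bars give the mean and SD of 3. Wnt6, Wnt11 and Wnt16 are lowest in C, Wnt5a and Wnt9a are highest in C, and Wnt4 steps down from C (mean 21.1) through T (14.6) to L (7.98).

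Wnt4, which acts in kidney tubule and female reproductive tract formation, was graded across the segments. It stood at 21.3, 22.1 and 20.1 TPM in C, against 15.6, 14.7 and 13.4 in T and 8.03, 7.55 and 8.36 in L, with no overlap between any pair of segments. It was 1.58-fold lower in T than in C (log2 -0.66, SE 0.09, edgeR adjusted p = 3.04e-05) and 1.79-fold lower again in L than in T (log2 -0.84, SE 0.10, adjusted p = 2.6e-05). L against C came to 2.84-fold (log2 -1.51, SE 0.09, adjusted p = 2e-08).

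Wnt2, which with Wnt2b is needed for lung formation, changed by less than the other abundant ligands that passed. It stood at 23.6, 24.0 and 25.7 TPM in C, against 18.1, 18.3 and 18.4 in T and 23.09, 22.96 and 22.12 in L, so T was lowest, and C lay just above L with no overlap. Wnt2 was 1.46-fold lower in T than in C (log2 -0.55, SE 0.08, edgeR adjusted p = 4.86e-05) and 1.26-fold higher in L than in T (log2 0.34, SE 0.08, adjusted p = 0.00902). L against C was called at a log2 of -0.21 (SE 0.08, adjusted p = 0.0345), but the call was lost in 13 of 19 alternatives. Among them were 7 that left out 1 library: C replicate 1 (edgeR adjusted p = 0.0522), C replicate 2 (0.077), C replicate 3 (0.15), T replicate 3 (0.0521), L replicate 1 (0.0735), L replicate 2 (0.0816) and L replicate 3 (0.0811). The lowest and highest adjusted p over the 19 were 0.0313 and 0.281.

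Wnt6 showed the widest change of the 10. The gene is expressed in surface ectoderm, and in chick embryos it acts on the epithelial state of somites. Its level was 2.26, 3.08 and 2.05 TPM in C, against 69.0, 55.1 and 56.2 in T and 38.2, 36.7 and 38.8 in L. Each segment stood apart, with C lowest and T highest. Behind these levels lay 142 counts summed over C, 2925 over T and 1690 over L. Wnt6 was 22.6-fold higher in T than in C (log2 4.50, SE 0.15, edgeR adjusted p = 3.31e-11), 14.5-fold higher in L than in C (log2 3.85, SE 0.15, adjusted p = 2.77e-10) and 1.56-fold lower in L than in T (log2 -0.64, SE 0.11, adjusted p = 0.0013). Its ratio to Wnt5a in TPM was 0.0552 ± 0.0139 in C, 3.27 ± 0.518 in T and 1.79 ± 0.321 in L.

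Wnt10a, which acts in tooth and hair follicle formation, was low outside T. It stood at 0.092, 0.192 and 0.146 TPM in C, against 3.74, 2.51 and 2.49 in T and 0.473, 0.250 and 0.348 in L, from 2, 4 and 4 counts in C against 66, 52 and 50 in T and 8, 4 and 7 in L. T lay far above both other segments, and the gene passed the filter on low values through T alone. With no filter it was also called higher in T than in C (log2 4.17, edgeR adjusted p = 1.03e-07) and lower in L than in T (log2 -2.98, adjusted p = 9.47e-06). In the filtered fit Wnt10a was 17.9-fold higher in T than in C (log2 4.16, SE 0.37, edgeR adjusted p = 6.47e-07) and 7.86-fold lower in L than in T (log2 -2.97, SE 0.33, adjusted p = 2.44e-05). L against C gave a log2 of 1.19 (SE 0.55, adjusted p = 0.0908) and passed in limma on log2(TPM + 0.1) (log2 0.90, adjusted p = 0.045).

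Wnt10b, known for favouring bone over fat formation, was lowest in T, where Wnt10a was highest. It stood at 2.41, 2.63 and 1.69 TPM in C, against 0.130, 0.637 and 0.182 in T and 1.96, 1.38 and 1.76 in L. The T libraries held 2, 13 and 4 counts, so T replicate 2 carried most of the signal left in that segment, while C and L overlapped. Wnt10b was 6.86-fold lower in T than in C (log2 -2.78, SE 0.40, edgeR adjusted p = 5.53e-05) and 4.95-fold higher in L than in T (log2 2.31, SE 0.42, adjusted p = 0.00173). Without T replicate 2 those log2 values were -3.76 and 3.29. L against C was -0.47 on the log2 scale (SE 0.30, adjusted p = 0.215).

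Wnt9a, which acts in joint formation, was highest in C. Its level was 7.25, 7.06 and 6.42 TPM in C, against 2.82, 2.70 and 3.08 in T and 2.64, 3.40 and 3.80 in L, so that C stood apart and T and L overlapped. It was 2.62-fold lower in T than in C (log2 -1.39, SE 0.15, edgeR adjusted p = 3.35e-06) and 2.25-fold lower in L (log2 -1.17, SE 0.15, adjusted p = 1.9e-05). L against T was 0.22 on the log2 scale (SE 0.16, adjusted p = 0.425).

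Wnt16, a regulator of cortical bone mass, had the opposite pattern at a like level. It stood at 1.10, 1.56 and 1.63 TPM in C, against 5.11, 6.70 and 4.20 in T and 5.27, 4.99 and 4.93 in L. T and L overlapped, with T the more spread, and both stood above C. Wnt16 was 3.38-fold higher in T than in C (log2 1.75, SE 0.23, edgeR adjusted p = 2.4e-05) and 3.19-fold higher in L (log2 1.67, SE 0.23, adjusted p = 4.96e-05). L against T was -0.08 (SE 0.20, adjusted p = 0.846), and it turned to 0.10 (adjusted p = 0.838) without T replicate 2.

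Ranked by mean TPM within a segment, neighbouring ligands mostly stood apart in C and ran together further down in T and L. In C the order was Wnt5a, Wnt2, Wnt4, Wnt11, Wnt9a, Wnt5b, Wnt6, Wnt10b, Wnt16 and Wnt10a, and of neighbours only Wnt6 and Wnt10b had values that overlapped. In T the order was Wnt6, Wnt11, Wnt5a, Wnt2, Wnt4, Wnt16, Wnt5b, Wnt10a, Wnt9a and Wnt10b. There the values overlapped between Wnt5a and Wnt2 and along the run from Wnt16 to Wnt9a. In L the order was Wnt6, Wnt11, Wnt2, Wnt5a, Wnt4, Wnt16, Wnt9a, Wnt5b, Wnt10b and Wnt10a, with overlaps between Wnt2 and Wnt5a, between Wnt9a and Wnt5b and between Wnt5b and Wnt10b.

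Of the other 9 ligand genes, Wnt2b alone passed the filter, and only through C, its highest segment, so its difference from C is a description. Wnt2b, the close relative of Wnt2, stood at 2.55 ± 0.199 TPM in C against 0.216 ± 0.0338 in T and 0.578 ± 0.0729 in L, 12.6-fold lower in T than in C (log2 -3.66, SE 0.25, n = 3 per segment). L exceeded T by 2.67-fold (log2 1.42, SE 0.33, edgeR adjusted p = 0.00946). Wnt3 had 27, 14 and 16 counts in C, 2, 2 and 5 in T and 0 in L, where a count of 0 allows up to 0.0592 CPM (3 counts over the 3 libraries; CPM scales counts to the same total as TPM, with no length correction), and its highest value was 1.00 TPM, in 1 C library. Wnt3a and Wnt8b had 0 counts in all 9 libraries, which allows up to 0.0175 CPM, a limit of counting error alone. Wnt1, Wnt7a, Wnt7b, Wnt8a and Wnt9b did not exceed 0.655 TPM in any library.

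For the 7 ligands with at least 5 TPM in a segment, the tested genes most alike in pattern were taken by Pearson's r of log2(TPM + 1) over the 9 libraries. The libraries fall into 3 segments, so such an r mostly follows the segment means. For Wnt6 these were Foxc2, Eya2 and Glul (r from 0.998 to 0.999), and for Wnt11 they were Wnt6 itself, Lgmn and Lbp (0.994 to 0.996). Sema5a, Cdca4 and Cenph lay closest to Wnt16 (0.985 to 0.992). Among the ligands lower in T than in C, Nid1, Msn and Insyn1 lay closest to Wnt5a (0.994 to 0.995), Crmp1, Pla1a and Ap3m2 to Wnt9a (0.985 to 0.989), Sorl1, Hoxa4 and Cyp26b1 to Wnt4 (0.986 to 0.991) and Meis2, Cdh19 and Cdh4 to Wnt2 (0.981 to 0.988).

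The rest of the Wnt pathway was read from lists, beside the background shares given above. Some genes, such as Notum and Ror2, stand on several lists, so the counts of the lists are not independent. Among 10 genes of ligand secretion and processing, T had 3 higher and 4 lower relative to C, and L had 2 higher and 3 lower. Trabd2b (Tiki2), a protease that cuts Wnt ligands, stood at 6.93 ± 0.472 TPM in C against 33.5 ± 2.08 in T and 16.6 ± 1.31 in L, 4.44-fold higher in T than in C (log2 2.15, SE 0.08, edgeR adjusted p = 1.39e-10). Notum, an enzyme that strips the lipid from Wnt ligands, was highest in T at 4.04 ± 0.819 TPM, 2.59-fold above C (adjusted p = 0.00186) and 2.96-fold above L. Vps29, of the retromer that recycles Wls, was 1.45-fold lower in T than in C.

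Of 18 tested receptors and co-receptors, T had 10 higher and 3 lower relative to C, and L had 7 higher and 6 lower. L was lower than T for 7 and higher for 2. Fzd4, a Frizzled that also binds Norrin, stood at 1.65 ± 0.230 TPM in C against 7.79 ± 0.964 in T and 3.46 ± 0.354 in L, 4.36-fold higher in T than in C (edgeR adjusted p = 1.52e-08). Fzd10 was 5.49-fold lower in L than in T (log2 -2.46, SE 0.22). Mcam, reported as a receptor of Wnt5a and also a mural cell marker, was 10.99-fold lower in T than in C and 4.80-fold lower in L. Ror2, a receptor tyrosine kinase of Wnt5a signalling named from the planar polarity list, stood at 8.77 ± 0.0549 TPM in C. It was at 11.9 ± 0.775 in T and 4.50 ± 0.557 in L, 2.63-fold lower in L than in T (edgeR adjusted p = 7.76e-07). Its relative Ror1, named after its values were seen, differed in L. Ror1 stood at 9.29 ± 0.253 TPM in C against 24.5 ± 1.86 in T and 23.5 ± 2.29 in L.

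Of 8 tested secreted antagonists, T had 3 higher and 2 lower relative to C, and L had 3 higher and 4 lower. Wif1, which binds Wnt ligands outside the cell, stood at 3.17 ± 0.433 TPM in C against 21.3 ± 2.46 in T and 10.4 ± 0.354 in L (6.10-fold higher in T than in C, edgeR adjusted p = 9.63e-10). Frzb, a secreted Frizzled-like antagonist, was 2.88-fold lower in L than in C. Among 7 tested R-spondins, their receptors and Norrin, T had 1 higher and 2 lower relative to C, and L had 2 higher and 3 lower. Rspo2, which strengthens the response to Wnt ligands, was 2.99-fold higher in T and 2.69-fold higher in L, at 129 ± 11.9 and 115 ± 9.51 TPM against 39.6 ± 1.62 in C. Lgr6, an R-spondin receptor, and Ndp (Norrin) passed the filter through C alone, where they are highest, so their values are a description. They are the 2 counted as lower in T, and both are among the 3 lower in L, so those counts were favoured by the filter. Lgr6 stood at 2.05 ± 0.375 TPM in C against 0.182 ± 0.0310 in T and 0.274 ± 0.0768 in L. Ndp stood at 2.17 ± 0.621, 0.590 ± 0.0741 and 0.320 ± 0.212 TPM.

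Of 24 core genes of the beta-catenin route, T had 5 higher and 1 lower relative to C, and L had 7 higher and 1 lower. Its named members were Tcf7l2 (1.72-fold higher in T), Dvl2 (1.42-fold higher in L) and Tcf7l1 (1.40-fold higher in L). Of 16 tested target genes of beta-catenin, T had 5 higher and 8 lower relative to C, and L had 1 higher and 9 lower relative to C and 2 higher and 9 lower relative to T. The median log2 changes of these targets were -0.22, -0.48 and -0.31, against 0.02, 0.01 and -0.00 over all genes. In the same order they were 0.17, -0.36 and -0.98 for the secreted antagonists and -0.14, -0.38 and -0.15 for the R-spondin list, Lgr6 and Ndp included. For the receptors they were 0.30, 0.09 and -0.11, and for the core genes 0.06, 0.10 and -0.01. Lef1, both a target and an effector, stood at 1.84 ± 0.507 TPM in C against 0.249 ± 0.102 in T and 0.238 ± 0.0714 in L, from 154, 17 and 14 summed counts. It passed the filter through C alone, so this too is a description, though Lef1 is counted among the lower targets. Apcdd1, a membrane inhibitor of the pathway, was 2.82-fold and 4.58-fold lower. Sp5, a transcription factor induced by beta-catenin, was highest in T at 4.15 ± 0.0965 TPM, 3.91-fold above C. It would not have passed the filter without the T libraries, so its difference from C is a description, though Sp5 is counted among the higher targets in T.

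Axin2, the target most used as a readout of beta-catenin and named after its values were seen, stood at 8.60 ± 0.721 TPM in C against 8.66 ± 0.202 in T and 7.94 ± 0.764 in L. It was called lower in T than in C by edgeR (log2 -0.31, SE 0.10, adjusted p = 0.0161), while its mean TPM was slightly higher there. Its direction thus differed between the fit on counts and TPM, and the cause was not tested. In the planar cell polarity and calcium branch, T had 12 of 30 tested genes higher and 10 lower relative to C, and L had 11 higher and 12 lower. Celsr2, a cadherin of planar polarity, was 2.55-fold lower in T than in C. Its relative Celsr1 stood at 1.81 ± 0.484 TPM in C against 0.507 ± 0.165 in T and 0.915 ± 0.407 in L, and would not have passed the filter without the C libraries.

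**Figure D4:**
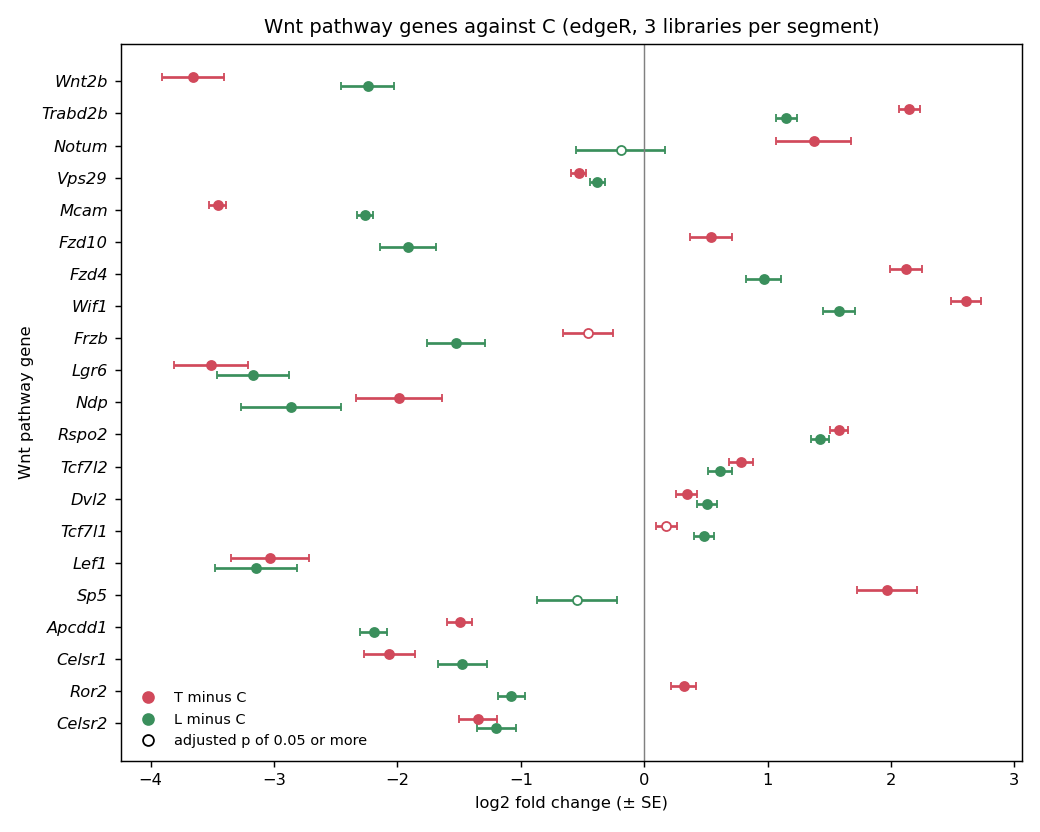
Fitted log2 fold changes (x axis, bars are the standard error, edgeR) of the named genes of the Wnt pathway lists (y axis) for T minus C and L minus C; open points did not reach an adjusted p below 0.05. Wif1, Trabd2b and Fzd4 were higher in T and less so in L, and Notum passed as higher in T alone. Sp5, also higher in T, would not have passed the filter on low values without the T libraries. Mcam was lower in both segments. Wnt2b, Lgr6, Ndp and Lef1, also far to the left, passed the filter on low values through C alone.

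Markers of meningeal layers and of other cell types differed between segments beside the ligands, and their part in the ligand differences was not tested. Over all tested genes, 51.1% were called in T against C and 49.6% in L against C. Of 8 markers of pia and perivascular fibroblasts, 8 were lower in T and 8 in L than in C, with a summed level of 5605 to 5923 TPM in C against 3910 to 4649 in T and 3310 to 3928 in L and none at 0. Of 10 dura markers, T had 8 higher and 2 lower relative to C and L had 6 higher and 4 lower, at 2594 to 2797 TPM in C against 3844 to 4061 in T and 3101 to 3245 in L, with none at 0. Crabp1, among the lower in both, passed the filter through C alone. Of 6 tested arachnoid markers among 10, T had 4 higher and 1 lower relative to C and L had 5 higher and 1 lower. Cdh1 and Dpp4 among the 6 stayed below 1 TPM in C and passed the filter through T and L, so their part in these counts is a description. The 10 summed to 256 to 274 TPM in C against 226 to 230 in T and 175 to 189 in L, with Krt18 and Krt8 at 0 in C and Krt8 at 0 in T.

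Of 9 tested Schwann cell markers among 10, 8 were lower and 1 higher in T than in C, as also in L, at 255 to 256 TPM in C against 92.9 to 98.4 in T and 144 to 151 in L, with none at 0. Macrophage markers summed to 169 to 185 TPM in C against 274 to 282 in T and 91.9 to 96.0 in L, with Ptprc below 1 TPM in every library, 2 higher and 2 lower of 8 tested in T against C, and 7 lower in L against C. Mural markers had 5 lower and 1 higher of 7 tested in T against C and 4 lower and 1 higher in L, at 8027 to 8165 TPM in C against 4582 to 5154 in T and 6714 to 7380 in L, with Higd1b at 0 throughout. Endothelial markers summed to 105 to 117 TPM in C against 48.8 to 49.5 in T and 59.2 to 63.4 in L, with Cldn5 at 0 throughout, Tie1 at 0 in T and L and Pecam1 below 1 TPM. In both T and L, 4 of 5 tested were lower than in C. Kdr and Emcn among them passed the filter through C alone, so their part in that count is a description. Epithelial markers summed to 25.5 to 29.0 TPM in C against 69.6 to 78.5 in T and 31.1 to 40.7 in L, with Cldn4 at 0 throughout and Krt14 at 0 in T and L. Of 3 tested, 3 were higher in T than in C and 2 in L. Among them Cdh1 and Krt15 stayed below 1 TPM in C and passed the filter through T and L, so these counts are a description. Neuron markers summed to 230 to 234 TPM in C against 21.6 to 22.7 in T and 38.8 to 42.0 in L, with both tested genes lower in T and L, 5 of 7 markers below 1 TPM throughout, and Rbfox3, Snap25 and Elavl3 at 0 in T and L. Astrocyte and ependymal markers summed to 119 to 129 TPM in C against 152 to 157 in T and 34.0 to 35.2 in L, with 3 higher and 4 lower of 7 in T against C, 6 lower in L against C and none at 0. Slc1a3 and Foxj1 stayed below 1 TPM in T and L and passed the filter through C alone, so their part in these counts is a description.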

How the data were processed

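RNA was sequenced from 9 libraries of meningeal fibroblasts, 3 per segment, and samples were grouped by their titles. L replicate 3 was taken by its title, since its description points to the TPM column of L replicate 2. For every gene and library, the table deposited by the authors holds an estimated count and a TPM value. Per the submitters' processing notes, which give no roles, the tools were HISAT2 2.2.1, StringTie 2.1.4, Trimmomatic 0.39, FastQC 0.11.9 and DESeq2 1.32.0, and the builds GRCm39 and GRCh38. Neither the annotation nor the use of strand in counting is given in the sources used here. How reads of overlapping or near-identical genes were assigned is therefore not known. Of 22013 entries, 112 carry no symbol. The deposited estimated counts were exactly whole in 92.7% of cells and were rounded to whole numbers for testing.

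The 12553 genes that reached 1 TPM in 3 or more of 9 libraries entered 1 edgeR quasi-likelihood fit (edgeR 4.0.16, R 4.3.3) with TMM factors and a design of segment alone, and ligand values were read out of it. The p-values, two-sided, were adjusted by Benjamini and Hochberg's method over all tested genes, with a threshold of 0.05. Standard errors are the log2 fold change over the square root of its F statistic. DESeq2 1.42.0 and limma 3.58.1 were alternatives, and 19 alternatives were run per contrast: other scaling factors or none, other filters or none, the 2 segments compared alone, log2(TPM + 1) and log2(TPM + 0.1) in limma, the replicate number as a block, and leaving out each library. The procedure was tested on simulated counts. Total counts of 15652558 to 25204310 limit the precision of ligands with few counts, and limits from a count of 0 cover counting error only.

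The ligands, pathway lists and markers were chosen with earlier results of these data known. The rule for named genes took all 10 ligands, the other ligand genes by level, and up to 3 genes per pathway list with the largest change among those that passed and reached 1 TPM in a segment. Of the list entries, 1 was not in the table (Gpr124, an older symbol of Adgra2, which was).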

Additional observations from a re-analysis of the deposited data

How the results depend on the processing

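Over 19 alternatives per contrast, the ligands called numbered 9 to 10 for T against C, 7 to 8 for L against C and 5 to 7 for L against T, against 9, 8 and 5, and the counts over all genes stayed within 1.5 times. Of 570 values of single ligands under alternatives, 547 kept their direction and side of the threshold, 13 lost a call (Wnt2 in L against C), 9 gained one and 1 changed sign. The sign changed for Wnt16 in L against T, with a log2 from -0.23 to 0.10 when 1 library was left out, and the difference was not called in any alternative. Wnt2 in L against C lost its call with library totals (edgeR adjusted p = 0.0932), with no TPM filter (0.069), in DESeq2 (0.0571) and in limma on log2(TPM + 1) (0.281) and log2(TPM + 0.1) (0.274); the cause was not tested. Limma on log2(TPM + 1) shrank the changes of the low genes Wnt10a and Wnt10b, to a log2 of 1.76 and -1.31 for T against C, where the pseudocount is close to or above their level.

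Leaving out 1 library, all genes called ranged from 5451 to 6958 for T against C, 5221 to 6890 for L against C and 1412 to 2437 for L against T. Same-numbered libraries were not taken as pairs: their deviations from the segment means correlated from -0.15 to 0.29, above 0.1 in 3 of 9 pairs. With the replicate number as a block, 10, 7 and 6 ligands were called for T against C, L against C and L against T, among 6252, 6084 and 1892 genes. The block brought Wnt5b past the threshold for T against C (edgeR adjusted p = 0.0391) and L against T (0.0433) and ended the call of Wnt2 for L against C (0.0599). Depth limits Wnt10a and Wnt10b most, with 10 counts summed over C for Wnt10a and 19 over T for Wnt10b.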

Other observations

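Some of the ligands lie next to one another on the chromosome, by the order of protein-coding genes in RefSeq (GRCm38.p6, names only). Wnt6 and Wnt10a are neighbours on chromosome 1, and both were highest in T. In L they parted: Wnt6 kept a mean of 37.9 TPM, against 60.1 in T, while Wnt10a stood at 0.357, against 2.92 in T. Wnt9a lies next to Wnt3a on chromosome 11, and Wnt3a had 0 counts in all 9 libraries. Wnt10b lies next to Wnt1 on chromosome 15, and Wnt1 had 3 counts summed over C, 1 over T and 0 over L.

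The relatives Wnt10a and Wnt10b exchanged places between segments. The ratio of Wnt10a to Wnt10b in TPM was 0.0382 to 0.0862 in the C libraries, 3.95 to 28.8 in T and 0.182 to 0.242 in L, so T did not overlap with the others. The width of the T range follows the low counts of Wnt10b there (2, 13 and 4).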
